A study of Homo sapiens with 6 samples.

Results

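The BCL2 family of apoptosis regulators was followed through 10 genes in U118 cells, an established human glioma line, after knockdown of RIPK2. The members were listed by symbol and looked up in the count table by Ensembl ID. They comprise 4 anti-apoptotic genes (BCL2, BCL2L1, BCL2L2 and MCL1), 2 effectors (BAX and BAK1) and 4 BH3-only genes (BCL2L11, PMAIP1, BID and BAD). All 10 were found among 20263 listed genes, and all 10 passed the filter on low counts. The 4 siRIPK2 libraries (siRIPK2_1 to siRIPK2_4) came from cells that had received siRNA against RIPK2, the siNC library from cells labelled NC, taken here as the control siRNA, and the WT library from cells labelled wild type, each sampled on day 2. All cells were grown in DMEM with serum and antibiotics, and RNA was sequenced after poly(A) enrichment. From the labels it is unclear if siRIPK2_1 to siRIPK2_4 stand for distinct siRNAs or for repeats of a single one, and if WT cells were mock-transfected. In comparisons with a lone control the p-values rest on the spread among the siRIPK2 libraries. Against both controls they also rest on the difference between siNC and WT. Part of this spread may be technical.

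Proteins of the BCL2 family decide whether the outer mitochondrial membrane stays closed. BAX and BAK1 can assemble into pores that release cytochrome c, the anti-apoptotic proteins bind and restrain them, and BH3-only proteins tip the balance by occupying the groove of the anti-apoptotic proteins or by activating the effectors directly. Glioma cells commonly rely on BCL2L1 (which encodes BCL-XL) and MCL1 for survival. RIPK2 itself is a kinase that links the NOD receptors to NF-kB, a transcription factor with known targets among anti-apoptotic genes.

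The contact between these proteins runs through the BH3 domain. The 30 bases below encode its core in each member. They were found by a search for a set codon pattern, so that all of them fit it follows from the search. Capitals mark the 18 core bases, which hold a leucine or methionine codon, a codon for arginine, alanine or lysine, 2 codons of any kind, a glycine or serine codon and an aspartate codon. The sequences are those of GENCODE release 29 transcripts (GRCh38), read 5′ to 3′ on the coding strand.
BCL2: ctgaccCTCCGCCAGGCCGGCGACgacttc
BCL2L1: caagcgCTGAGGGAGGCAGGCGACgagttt
BCL2L2: caagccATGCGGGCAGCTGGAGATgagttc
MCL1: gagaccTTACGACGGGTTGGGGATggcgtg
BAX: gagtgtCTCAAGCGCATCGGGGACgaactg
BAK1: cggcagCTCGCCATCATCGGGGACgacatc
BCL2L11: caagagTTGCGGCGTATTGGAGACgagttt
PMAIP1: actcaaCTCAGGAGATTTGGAGACaaactg
BID: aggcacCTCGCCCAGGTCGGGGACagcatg
BAD: cgcgagCTCCGGAGGATGAGTGACgagttt
Each stretch lies within a single coding exon. Only BAD carries a serine codon before the aspartate codon, where the others carry a glycine codon, and only BCL2L2 opens the core with a methionine codon. Between members the 18 core bases had 5 (BCL2L2 and BAK1) to 14 (BCL2 with BID, and BAK1 with BID) positions in common. The codon pattern stood in the longest coding sequence of 9 of the 10 members (that of PMAIP1 is read from a shorter transcript). It also stood in 6 of the 13 other BCL2 family genes and in 7.72% of 19436 listed genes, so a match is a description and not a mark of the family.

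The 10 genes are spread over 9 chromosomes. On GRCh38 the BH3 core lies at chr18:63318355-63318384 (minus strand) in exon 2 of BCL2 (ENSG00000171791), at chr20:31721928-31721957 (minus) in exon 2 of BCL2L1 (ENSG00000171552), at chr14:23307897-23307926 (plus) in exon 3 of BCL2L2 (ENSG00000129473) and at chr1:150578871-150578900 (minus) in exon 1 of MCL1 (ENSG00000143384). For the effectors it lies at chr19:48955781-48955810 (plus) in exon 3 of BAX (ENSG00000087088) and at chr6:33575393-33575422 (minus) in exon 4 of BAK1 (ENSG00000030110). For the BH3-only genes it lies at chr2:111150097-111150126 (plus) in exon 3 of BCL2L11 (ENSG00000153094), at chr18:59902667-59902696 (plus) in exon 2 of PMAIP1 (ENSG00000141682), at chr22:17739421-17739450 (minus) in exon 4 of BID (ENSG00000015475) and at chr11:64271628-64271657 (minus) in exon 3 of BAD (ENSG00000002330). The strand setting of the counting is not given in the sources used here, so reads of overlapping genes may be mixed. BAD shares 404 exon bases with the listed gene GPR137 on the opposite strand, and BCL2L2 shares 206 with PPP1R3E. BCL2L1 shares 1424 exon bases (43.0% of its exon length) with the antisense gene ABALON and BCL2L11 shares 727 with MIR4435-2HG, neither of them listed in the count table.

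Total counts ran from 33540619 to 45309423 per library. RIPK2 was at 3.86, 11.9, 6.27 and 4.32 CPM (counts scaled to the library total with TMM factors) in siRIPK2_1 to siRIPK2_4, against 43.4 CPM in siNC and 56.8 CPM in WT. Every knockdown library was thus below both controls (log2 fold change -2.93 against both, unadjusted p of 8.17e-05 and adjusted p of 0.739 in edgeR). The adjusted p against both controls was 1.85e-06 in DESeq2 and 0.292 in limma-voom. In edgeR it was 0.0431 without siRIPK2_2, the knockdown library with the most RIPK2 transcript. It was 0.756, 0.9975 and 0.977 in edgeR without siRIPK2_1, siRIPK2_3 and siRIPK2_4. VIM, a mesenchymal marker of glioma lines, was at 3813 to 7190 CPM in siRIPK2, 7572 CPM in siNC and 6477 CPM in WT. The cells are labelled as astroblastoma, but the 5 astrocyte markers summed to 4.05 to 13.9 CPM in siRIPK2, 12.3 CPM in siNC and 7.33 CPM in WT. Most of that sum was SLC1A3, with GFAP at 0.532 to 0.778 CPM in siRIPK2, 1.09 CPM in siNC and 0.999 CPM in WT, and AQP4 at 0 in all 6 libraries. Leukocyte markers (PTPRC, CD14, AIF1, CSF1R and ITGAM) summed to 2.20 to 4.21 CPM in siRIPK2, 4.02 CPM in siNC and 2.47 CPM in WT. In bulk RNA, fewer cells with a transcript and less of it per cell cannot be told apart.

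None of the 10 members passed the adjusted threshold of 0.05 in edgeR's quasi-likelihood test in any of the 4 comparisons, nor in DESeq2 or limma-voom. The adjusted share of all tested genes called by edgeR was 0.0% in each comparison as well. Against siNC, 1 member (BCL2L11, higher) had an unadjusted p under 0.05 in edgeR, where 4.77% of 14306 genes did (3.56% higher and 1.21% lower). Against WT, 0 members had one, where 1.08% of genes did (0.664% higher and 0.419% lower). Against both controls together 0 members had one, where 2.55% of 13901 genes did (1.32% higher and 1.23% lower). For siNC against WT 1 member had one (BCL2L11, lower), where 2.73% of genes did (0.643% higher and 2.09% lower). At an adjusted p under 0.05 DESeq2 called 0.568% of genes against siNC, 0.0629% against WT, 0.072% against both controls, and 0.0769% when siNC was set against WT. limma-voom called 0.00699% against WT and 0.0% in the other comparisons. The family's counts are thus close to those of genes at large, and what follows describes levels, their spread and intervals.

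**Figure D1:**
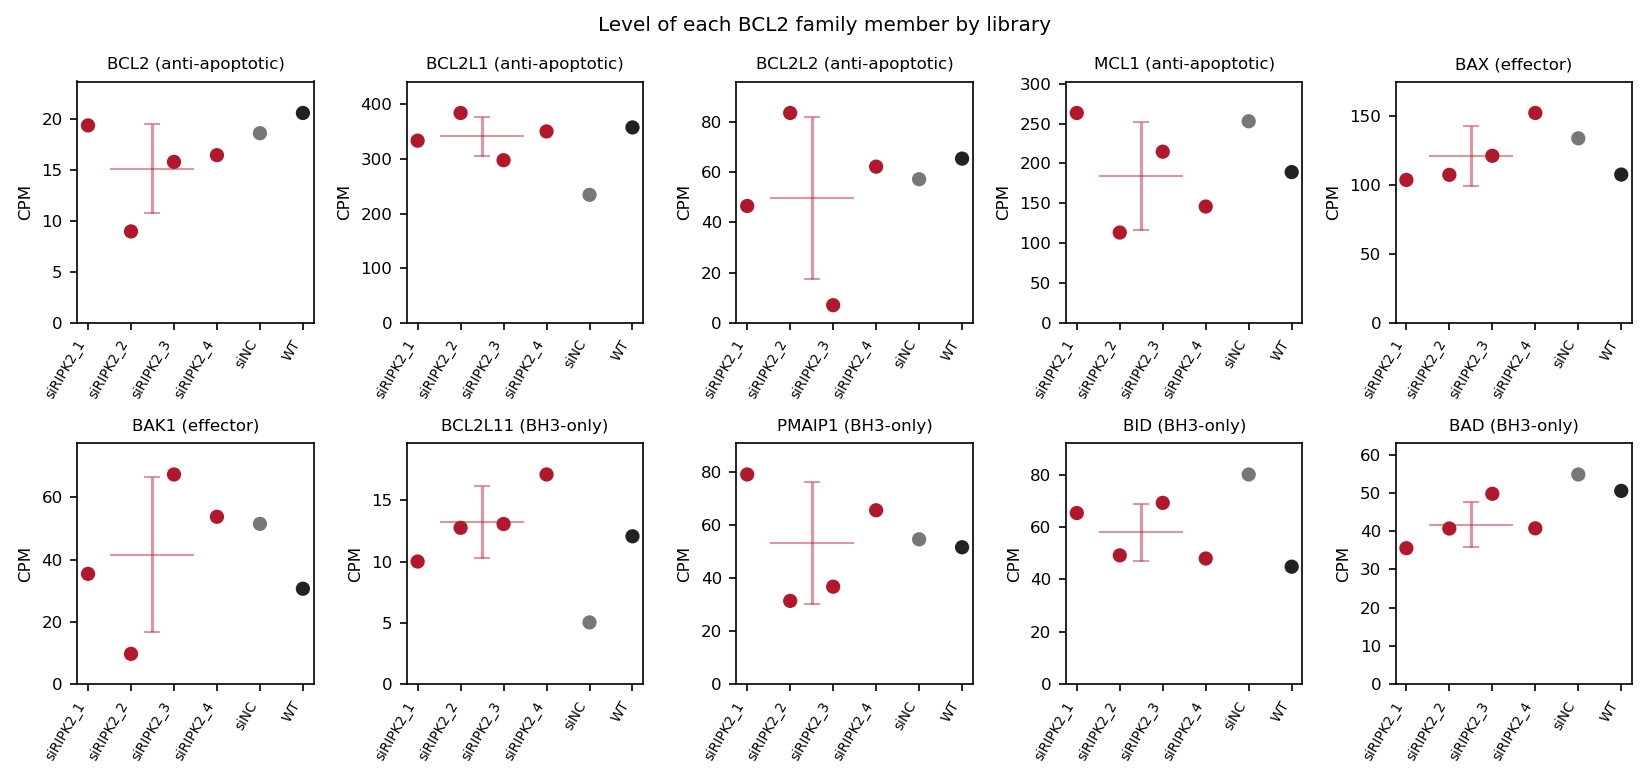
Level of each member in CPM (vertical axes from 0) in the 4 siRIPK2 libraries (red), siNC (grey) and WT (black). Red bars give the siRIPK2 mean with its SD (n = 4). BCL2L11 is lowest in siNC at 5.05 CPM, BCL2L2 is lowest in siRIPK2_3 at 7.02 CPM and BAK1 is lowest in siRIPK2_2 at 9.77 CPM.

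Among the anti-apoptotic genes, BCL2L1 was the most evenly expressed in the knockdown libraries. It stood at 334, 384, 298 and 351 CPM in siRIPK2_1 to siRIPK2_4, against 234.5 CPM in siNC and 358 CPM in WT. All 4 knockdown libraries lay above siNC, which was the lowest of the 6, and they straddled WT. The knockdown mean was 342 ± 36.01 CPM (SD, n = 4), 146% of siNC but 95.5% of WT. In edgeR its log2 fold change was 0.54 against siNC (95% interval -0.13 to 1.21, unadjusted p of 0.098, adjusted p of 1.0) and -0.07 against WT (-0.71 to 0.57). All 4 knockdown libraries were above siNC for 2 of the 10 members, BCL2L1 and BCL2L11, and for 19.3% of tested genes.

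MCL1, whose protein is short-lived and sequesters BCL2L11, PMAIP1 and BAK1 proteins, varied more. Its level was 263, 113, 215 and 146 CPM in siRIPK2_1 to siRIPK2_4, against 253 CPM in siNC and 189 CPM in WT. The knockdown libraries lay on both sides of WT, and siRIPK2_1 was above siNC while the others were below it. The mean was 184 ± 67.5 CPM (SD, n = 4), and edgeR gave a log2 fold change of -0.46 against siNC (95% interval -1.49 to 0.57) and -0.037 against WT (-1.10 to 1.02).

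BCL2, the founding member of the family, was a minor transcript here. It had 19.4, 8.97, 15.8 and 16.5 CPM in siRIPK2_1 to siRIPK2_4, against 18.6 CPM in siNC and 20.6 CPM in WT. All 4 knockdown libraries were below WT, as for BAD and for 12.8% of tested genes, but siRIPK2_1 lay above siNC. The log2 fold change in edgeR was -0.30 against siNC (95% interval -1.32 to 0.72) and -0.44 against WT (-1.45 to 0.57).

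BCL2L2, which encodes BCL-w, had the widest spread of the 10. Its level was 46.5, 83.6, 7.02 and 62.2 CPM in siRIPK2_1 to siRIPK2_4, against 57.2 CPM in siNC and 65.4 CPM in WT. The value in siRIPK2_3 rests on 317 counts (95% exact binomial interval 6.27 to 7.84 CPM, counting error only) and was more than 4-fold below each other library, whereas the remaining 5 lay within 46.5 to 83.6 CPM. In siRIPK2_3, 0.559% of tested genes stood at least 4-fold below every other library, and BCL2L2 was the only member among them. Its range within siRIPK2, 3.57 on the log2 scale, exceeded that of 99.6% of the 10674 genes with a mean of at least 5 CPM, whose median range was 0.713. The log2 fold change was -0.20 against siNC (95% interval -2.42 to 2.02) and 0.16 without siRIPK2_3.

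The low BCL2L2 value in siRIPK2_3 came with a high value of BCL2L2-PABPN1, an annotated readthrough gene that joins BCL2L2 to its downstream neighbour PABPN1. BCL2L2-PABPN1 shares 813 exon bases with BCL2L2 on the same strand. It stood at 3.51, 1.51, 12.3 and 5.06 CPM in siRIPK2_1 to siRIPK2_4, against 3.46 CPM in siNC and 1.83 CPM in WT. The readthrough gene thus took 63.6% of the summed CPM of both genes in siRIPK2_3, and between 1.77% and 7.52% in the other 5 libraries. Summed, the genes still had only 19.3 CPM in siRIPK2_3, against 50.0, 85.1 and 67.3 CPM in siRIPK2_1, siRIPK2_2 and siRIPK2_4, 60.7 CPM in siNC and 67.2 CPM in WT. PABPN1 itself was at 56.6, 82.3, 89.4 and 88.6 CPM in siRIPK2_1 to siRIPK2_4, against 74.99 CPM in siNC and 72.96 CPM in WT, so siRIPK2_3 was not low for the neighbour. How the counting assigned reads from the shared exons was not tested.

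**Figure D2:**
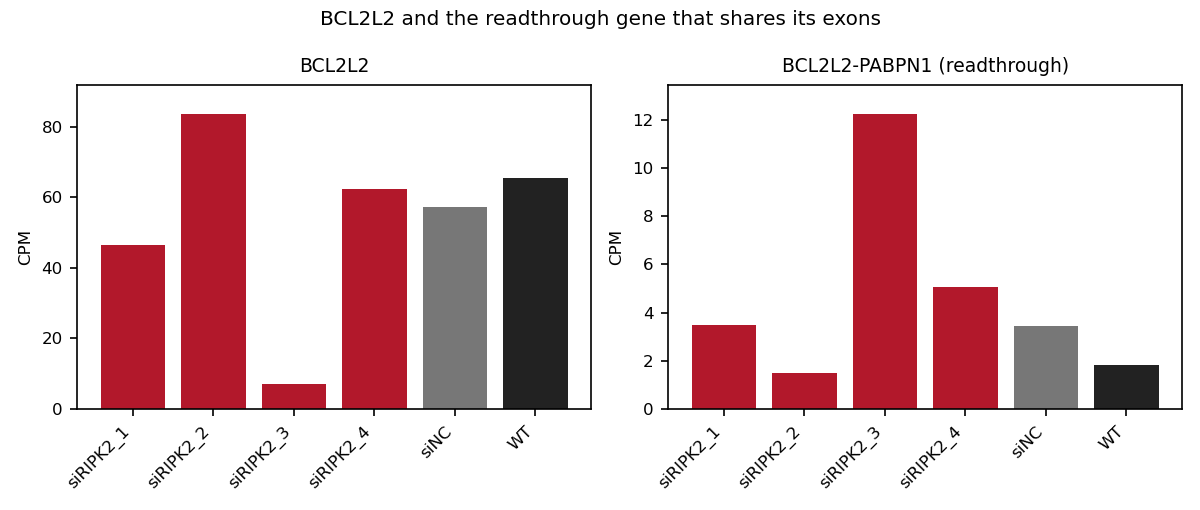
Level in CPM of BCL2L2 (left) and of the readthrough gene BCL2L2-PABPN1 (right) by library, with bars from 0 and separate vertical scales; red bars are siRIPK2 libraries, grey is siNC and black is WT. siRIPK2_3 has the lowest BCL2L2 bar (7.02 CPM) and the highest readthrough bar (12.3 CPM).

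Of the effectors, BAX had the narrower range within siRIPK2 (0.555 on the log2 scale). BAX, which is held in the cytosol until activated, had 104, 107, 121 and 152 CPM in siRIPK2_1 to siRIPK2_4, against 134 CPM in siNC and 108 CPM in WT. The groups overlapped, and the highest and the lowest of the 6 values were both knockdown libraries. Its log2 fold change in edgeR was -0.14 against siNC (95% interval -0.88 to 0.59) and 0.17 against WT (-0.58 to 0.92).

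BAK1, which resides in the mitochondrial membrane, was at 35.4, 9.77, 67.3 and 53.8 CPM in siRIPK2_1 to siRIPK2_4, against 51.5 CPM in siNC and 30.7 CPM in WT. siRIPK2_2 was more than 2-fold below every other library, as were 0.881% of tested genes in that library, while siRIPK2_3 was the highest of the 6. Its range within siRIPK2 was 2.79 on the log2 scale, wider than in 99.0% of genes. The interval of its fold change is correspondingly broad, with a log2 value of -0.31 against siNC (95% interval -2.15 to 1.54 in edgeR) and 0.44 against WT (-1.51 to 2.38). Leaving out siRIPK2_2 moved the value against siNC to 0.0186.

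Of the BH3-only genes, BCL2L11, which encodes BIM, an activator that binds every anti-apoptotic member, stood furthest from siNC. It had 10.0, 12.8, 13.1 and 17.1 CPM in siRIPK2_1 to siRIPK2_4, against 5.05 CPM in siNC and 12.1 CPM in WT. Every knockdown library was above siNC, and they straddled WT, so it is the siNC library that lies apart. The siNC value rests on 162 counts, with a 95% exact binomial interval of 4.30 to 5.89 CPM that covers counting error only and does not reach any other library. Against siNC the log2 fold change was 1.39 in edgeR (SE 0.442, 95% interval 0.36 to 2.42, unadjusted p of 0.0143, adjusted p of 0.972), and over the 12 settings tried the adjusted p ran from 0.148 (DESeq2) to 1.0. Against WT it was 0.13 (SE 0.401, 95% interval -0.80 to 1.06, unadjusted p of 0.75). siNC against WT gave -1.26 (95% interval -2.45 to -0.06, unadjusted p of 0.0412, adjusted p of 1.0 in edgeR). Without siNC the value against both controls was 0.14 in place of 0.63.

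PMAIP1, the NOXA gene, whose product binds MCL1 in particular, was at 79.2, 31.5, 36.9 and 65.7 CPM in siRIPK2_1 to siRIPK2_4, against 54.7 CPM in siNC and 51.7 CPM in WT. siRIPK2_1 and siRIPK2_4 were above both controls, and siRIPK2_2 and siRIPK2_3 were below both. Its log2 fold change was -0.038 against siNC (95% interval -1.24 to 1.17) and 0.043 against WT (-1.17 to 1.26) in edgeR.

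BID, which links death receptors to mitochondria once cleaved by caspase-8, had 65.3, 49.2, 69.2 and 48.0 CPM in siRIPK2_1 to siRIPK2_4, against 80.0 CPM in siNC and 44.9 CPM in WT. The knockdown libraries all lay between the controls, below siNC (as for BAD and 17.3% of tested genes) and above WT (as for 11.5%). The log2 fold change was -0.47 against siNC (95% interval -1.21 to 0.28) and 0.37 against WT (-0.42 to 1.16), and siNC against WT gave 0.83 (-0.15 to 1.82, unadjusted p of 0.0857 in edgeR).

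BAD, which binds BCL2, BCL2L1 and BCL2L2 proteins when unphosphorylated, was the only member with all 4 knockdown libraries on one side of both controls. It had 35.5, 40.7, 49.7 and 40.7 CPM in siRIPK2_1 to siRIPK2_4, against 54.8 CPM in siNC and 50.5 CPM in WT. The gap is narrow, with siRIPK2_3 just under WT. Such a position below both controls was found for 5.5% of tested genes, and one above both for 4.96%, so 1 of 10 members is near the background. The mean was 41.7 ± 5.91 CPM (SD, n = 4), and the log2 fold change against both controls was -0.34 in edgeR (95% interval -0.83 to 0.15, unadjusted p of 0.154, adjusted p of 1.0). Permuting the labels in all 15 ways, an exact 2-sided test of mean log2 CPM, gave a p of 0.2 for BAD, where 0.0667 is the smallest that 4 against 2 allows. Among the other members that exact p ran from 0.133 (BCL2L11) to 0.933 (BAX and BAK1).

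**Figure D3:**
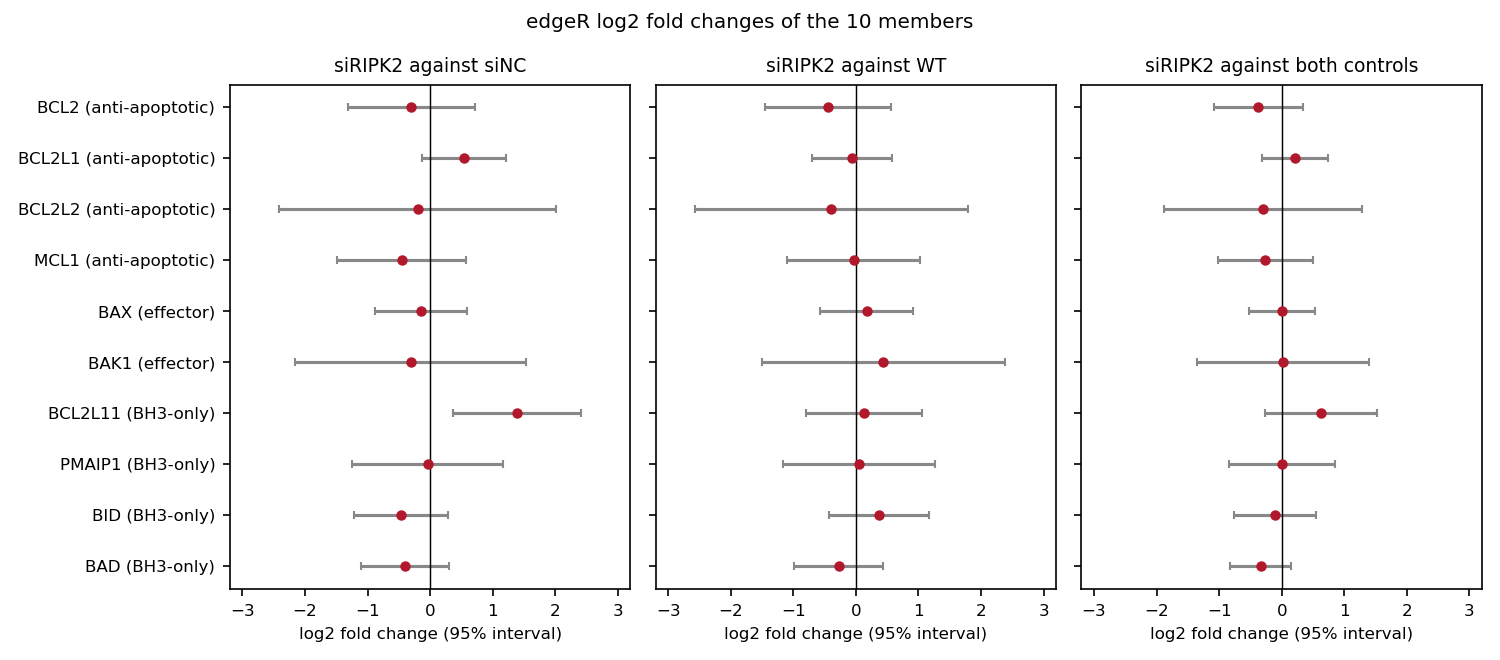
edgeR log2 fold changes of the 10 members (points) with 95% intervals (horizontal bars) for siRIPK2 against siNC, against WT and against both controls; positive values are higher in siRIPK2. The interval of BCL2L11 against siNC, 0.36 to 2.42, is the only one of the 30 that leaves out 0.

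As a group, 8 of the 10 members had a negative and 2 a positive fitted value against siNC, with a median log2 fold change of -0.25. Over all 14306 genes tested, 6912 were negative and 7394 positive, with a median of 0.0158. Against WT 5 members were positive and 5 negative (median 0.0030, all genes 0.0132), and against both controls 5 and 5 (median -0.053, all genes 0.0144). By role, the medians against siNC were -0.25 for the anti-apoptotic, -0.23 for the effector and -0.22 for the BH3-only genes. Against WT they were -0.23 for the anti-apoptotic, 0.30 for the effector and 0.088 for the BH3-only genes. Both comparisons use the same 4 siRIPK2 libraries, and in each all 10 members share 1 control library, so the values are not independent. In these comparisons 0 of the 10 members passed edgeR's adjusted threshold.

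Levels of different genes were compared per kilobase of annotated exon. BCL2L1 was the most abundant member, with a mean of 98.5 CPM per kilobase over the 6 libraries, and it exceeded BAX (46.8) in 6 of 6 libraries. BAX was higher than MCL1 (44.96) in 2 of 6 libraries. MCL1 exceeded BAD (26.5) in 6 of 6. BAD and PMAIP1 (23.8) crossed between libraries, with BAD higher in 4 of 6. Below them came BAK1 (18.7), BID (13.4) and BCL2L2 (12.8), where BID was above BCL2L2 in 3 of 6. BCL2L11 (1.75) and BCL2 (1.41) were the lowest, and BCL2L11 was above BCL2 in 4 of 6. The order depends on the length used. Annotated exon was 1.91 times as long as the longest coding transcript for BAX, 1.78 times for BID and 1.58 times for BCL2, against 1.0 for BAK1. Per kilobase of that transcript the means of BAK1 (18.7) and BID (23.8) changed places, while those of the other members kept their ranks. BCL2L1 then exceeded BAX in 5 of 6 libraries (means 125 and 89.1, siNC being the exception), and BAX exceeded MCL1 in 6 of 6. BCL2L11 was then above BCL2 in 3 of 6.

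**Figure D4:**
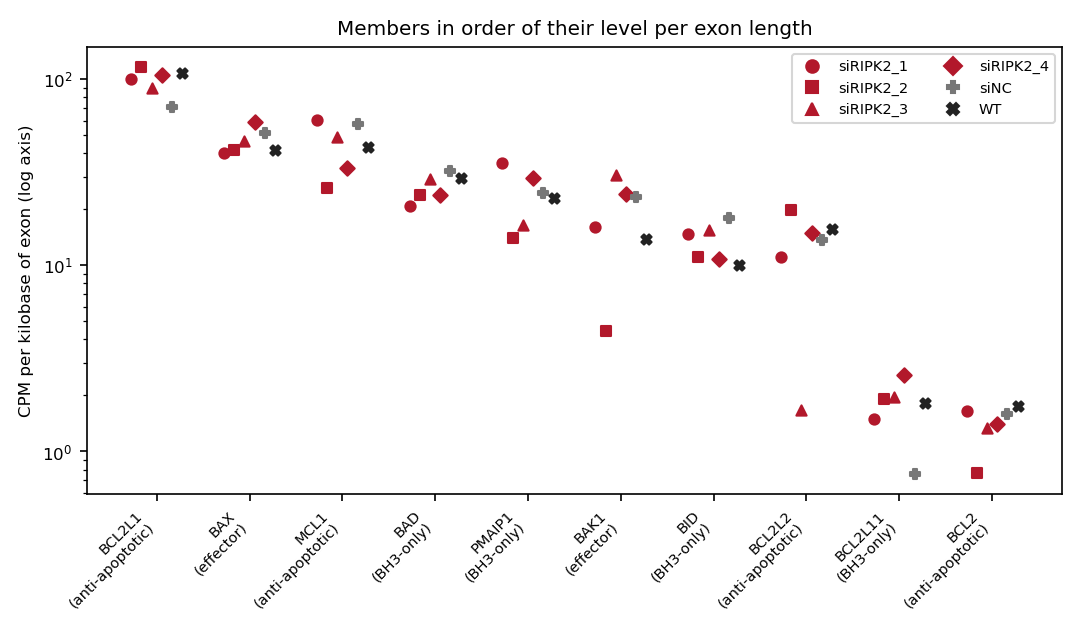
CPM per kilobase of exon (log axis) for each member in each library, ordered from the highest mean (BCL2L1, 98.5) to the lowest (BCL2, 1.41); red symbols are siRIPK2 libraries, grey is siNC and black is WT. siRIPK2_3 lies far below the other libraries for BCL2L2, siRIPK2_2 for BAK1 and siNC for BCL2L11.

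Ratios within a library show how the balance between members shifted from library to library. The ratio of BCL2L1 to MCL1 per kilobase was 1.67, 4.48, 1.83 and 3.17 in siRIPK2_1 to siRIPK2_4, against 1.22 in siNC and 2.5 in WT. BCL2L1 thus exceeded MCL1 in all 6 libraries, most in siRIPK2_2 and least in siNC. The ratio of BAX to BAK1 was 2.5, 9.4, 1.54 and 2.42 in siRIPK2_1 to siRIPK2_4, against 2.22 in siNC and 3.0 in WT, with siRIPK2_2 the highest and siRIPK2_3 the lowest. Per kilobase of the longest coding transcript, a length added for these ratios after seeing the data, it was 4.77, 17.9, 2.93 and 4.61 in siRIPK2_1 to siRIPK2_4, against 4.24 in siNC and 5.72 in WT. The summed effectors stood at 0.323, 0.282, 0.544 and 0.535 of the summed anti-apoptotic members in siRIPK2_1 to siRIPK2_4, against 0.522 in siNC and 0.329 in WT. On the coding transcript length they were 0.439, 0.416, 0.693 and 0.715 in siRIPK2_1 to siRIPK2_4, against 0.707 in siNC and 0.452 in WT. siRIPK2_1 and siRIPK2_2 were below WT and siRIPK2_4 above siNC on both lengths, while siRIPK2_3 was above siNC on exon length and below it on coding transcript length. The BH3-only sum was 0.417, 0.313, 0.445 and 0.429 of the anti-apoptotic sum in siRIPK2_1 to siRIPK2_4, against 0.524 in siNC and 0.383 in WT, so siNC was the highest. These sums are descriptions and were not tested, and transcript ratios do not give protein ratios.

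**Figure D5:**
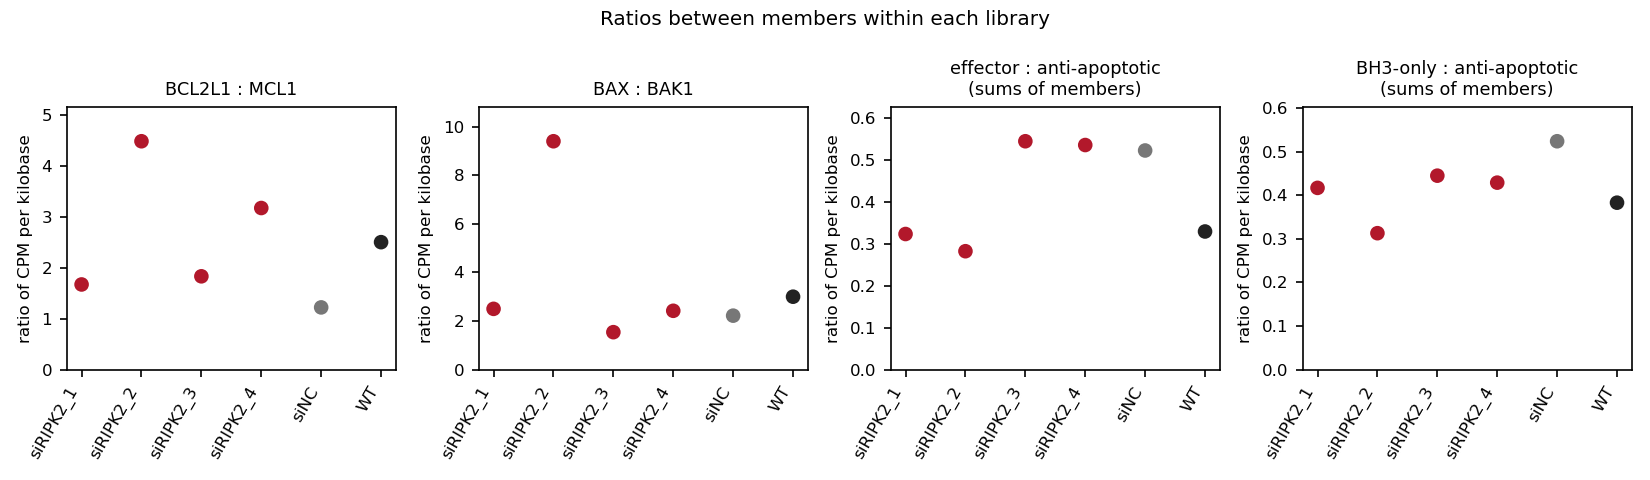
Ratios of CPM per kilobase within each library (vertical axes from 0): BCL2L1 to MCL1, BAX to BAK1, effectors to anti-apoptotic members and BH3-only to anti-apoptotic members; red points are siRIPK2 libraries, grey is siNC and black is WT. siRIPK2_2 has the highest BCL2L1 to MCL1 (4.48) and BAX to BAK1 (9.4) ratios, and siNC the highest BH3-only ratio (0.524).

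The library that most often held an extreme value was siRIPK2_2, which also kept the most RIPK2 transcript of the knockdown libraries. It was the lowest of the 6 for BCL2, MCL1, BAK1 and PMAIP1 and the highest for BCL2L1 and BCL2L2, 6 of 10 members, where it was the highest or lowest for 35.0% of tested genes. siRIPK2_1 was an extreme for 4 members (41.9% of genes), siRIPK2_3 for 2 (38.4%), siRIPK2_4 for 2 (33.3%), siNC for 4 (33.2%) and WT for 2 (18.2%). The cause of these differences between knockdown libraries was not tested, nor was their relation to the RIPK2 level.

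Of the 13 other BCL2 family genes, 8 passed the filter on low counts and 5 did not (BCL2L10, BOK, BIK, BCL2L14 and BCL2L15), each of those at or under 0.227 CPM in every library. None passed edgeR's adjusted threshold. Against siNC, 1 of the 8 was lower at an unadjusted p under 0.05 and 0 were higher, where 1.21% and 3.56% of all tested genes were. Against both controls 2 of the 8 were lower and 0 higher, where 1.23% and 1.32% of genes were. BNIP3, a mitophagy receptor induced by hypoxia, was at 360, 216, 170 and 135 CPM in siRIPK2_1 to siRIPK2_4, against 537 CPM in siNC and 241 CPM in WT. All knockdown libraries were below siNC and 3 of 4 below WT (log2 fold change -1.28 against siNC, unadjusted p of 0.0249, and -0.13 against WT, unadjusted p of 0.803 in edgeR). Its paralog BNIP3L was at 127, 143, 89.2 and 123 CPM in siRIPK2_1 to siRIPK2_4, against 179 CPM in siNC and 195 CPM in WT. It overlaps another listed gene and was below both controls in all 4 (log2 fold change -0.64, unadjusted p of 0.0214, adjusted p of 1.0 in edgeR).

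BBC3, which encodes the BH3-only activator PUMA, was like BNIP3L below both controls in all 4, as were 5.5% of tested genes. It had 10.9, 9.19, 9.32 and 7.76 CPM in siRIPK2_1 to siRIPK2_4, against 14.2 CPM in siNC and 13.8 CPM in WT (log2 fold change against both controls -0.59, unadjusted p of 0.0448, adjusted p of 1.0 in edgeR). HRK, a BH3-only gene best known from neurons, was lowest in siNC at 4.55 CPM, against 5.69 to 10.4 CPM in siRIPK2 and 8.77 CPM in WT. BCL2L13 ranged from 49.9 to 135 CPM in siRIPK2, with 74.4 CPM in siNC and 102 CPM in WT. BCL2L12, which overlaps another listed gene, ranged from 6.51 to 46.4 CPM in siRIPK2, with 51.2 CPM in siNC and 23.3 CPM in WT. The NF-kB target BCL2A1 (0.340 to 0.743 CPM in siRIPK2, 0.530 CPM in siNC and 0.555 CPM in WT) and the BH3-only gene BMF (0.266 to 1.82 CPM in siRIPK2, 1.43 CPM in siNC and 0.666 CPM in WT) were barely expressed.

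Another 6 lists, 74 genes in all, covered proteins that act with the family, and 0 of the 74 passed edgeR's adjusted threshold in any comparison. At an unadjusted p under 0.05 against siNC, 3 were higher (BIRC5, OPA1 and FAS) and 2 lower (BIRC3 and MAPK9), where 3.56% of all tested genes were higher and 1.21% lower. Against WT there were 0, where 1.08% of genes were called. Against both controls 3 were higher (YWHAB, STAT3 and FAS) and 1 lower (MAPK9), where 1.32% of 13901 genes were higher and 1.23% lower. All 4 knockdown libraries lay above both controls for 4.96% of tested genes and below both for 5.5%. The genes named below were picked for a small unadjusted p against siNC, which is 1 of the controls. Their p-values against both controls are thus not independent of that choice. In the apoptosome, caspase and IAP list 6 of 14 genes had a positive value against siNC (median -0.086). Beside this and the like counts below, 7394 of all 14306 tested genes were positive against siNC (median 0.0158). BIRC3, a gene of the IAP (inhibitor of apoptosis) family, had 27.2, 19.4, 15.6 and 19.8 CPM in siRIPK2_1 to siRIPK2_4, against 45.3 CPM in siNC and 13.0 CPM in WT (log2 fold change -1.15 against siNC, unadjusted p of 0.0123, and 0.65 against WT, unadjusted p of 0.141 in edgeR). siNC was the highest library and WT the lowest. BIRC5, the survivin gene, which rises in mitosis, had 72.1, 41.0, 46.5 and 177 CPM in siRIPK2_1 to siRIPK2_4, against 18.2 CPM in siNC and 65.9 CPM in WT (log2 fold change 2.21 against siNC, unadjusted p of 0.0376, and 0.35 against WT in edgeR). siNC was the lowest and siRIPK2_4 stood alone at the top. The executioner caspase gene CASP6 was at 9.05 to 14.0 CPM in siRIPK2, 6.05 CPM in siNC and 11.5 CPM in WT.

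In the list of outer membrane, fusion and fission partners, 4 of 10 genes had a positive value against siNC (median -0.041). OPA1, which shapes the cristae that hold cytochrome c, was at 128, 107, 89.1 and 109 CPM in siRIPK2_1 to siRIPK2_4, against 51.8 CPM in siNC and 99.5 CPM in WT (log2 fold change 1.06 against siNC, unadjusted p of 0.0127, and 0.12 against WT, unadjusted p of 0.706 in edgeR). The OPA1 protease gene OMA1 was at 9.01 to 10.8 CPM in siRIPK2, 6.11 CPM in siNC and 8.99 CPM in WT. The fission GTPase gene DNM1L was at 62.4 to 85.2 CPM in siRIPK2, 46.4 CPM in siNC and 69.7 CPM in WT. For all 3 genes siNC was the lowest of the 6 libraries, but they were picked for the smallest unadjusted p against siNC. Their distance from siNC therefore follows in part from that choice. In the same list siNC was the highest library for VDAC1, VDAC2 and MFN2. It was the highest or lowest for 33.2% of tested genes.

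Among 18 kinases and ubiquitin factors that act on BCL2 family proteins, 11 had a positive value against siNC (median 0.12). MAPK9, which encodes the kinase JNK2, was at 15.97, 17.8, 24.6 and 22.2 CPM in siRIPK2_1 to siRIPK2_4, against 37.3 CPM in siNC and 32.2 CPM in WT. All 4 knockdown libraries were below both controls (log2 fold change -0.79 against both, unadjusted p of 0.0115, adjusted p of 1.0 in edgeR). YWHAB, a 14-3-3 protein gene of the kind that retains phosphorylated BAD, was at 170, 181, 172 and 174 CPM in siRIPK2_1 to siRIPK2_4, against 116 CPM in siNC and 139 CPM in WT. All 4 knockdown libraries were above both controls (0.45 against both, unadjusted p of 0.0436, adjusted p of 1.0 in edgeR). TPT1, whose product binds MCL1, was at 422 to 571 CPM in siRIPK2, 629 CPM in siNC and 522 CPM in WT.

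The lists of transcription factors (6 of 14 positive against siNC, median -0.020), death receptor proteins (4 of 8, median 0.015) and splicing factors (5 of 10, median -0.0016) lay near the median of all genes. STAT3, an activator of BCL2L1 and MCL1, was at 240, 185, 175 and 144 CPM in siRIPK2_1 to siRIPK2_4, against 114 CPM in siNC and 121 CPM in WT, above both controls in all 4 (log2 fold change 0.66 against both, unadjusted p of 0.0251, adjusted p of 1.0 in edgeR). FAS, a death receptor gene that overlaps another listed gene, was at 34.9, 26.6, 30.3 and 41.3 CPM in siRIPK2_1 to siRIPK2_4, against 15.7 CPM in siNC and 21.8 CPM in WT, likewise above both in all 4 (0.82 against both, unadjusted p of 0.0148, adjusted p of 1.0 in edgeR). CFLAR, which restrains caspase-8, was at 28.9 to 42.1 CPM in siRIPK2, 23.97 CPM in siNC and 24.6 CPM in WT. NFKB1 was at 12.1 to 41.8 CPM in siRIPK2, 47.2 CPM in siNC and 40.6 CPM in WT, and the death receptor gene TNFRSF10B was at 83.9 to 204 CPM in siRIPK2, 200.1 CPM in siNC and 134 CPM in WT. The splicing factor gene HNRNPF was at 192 to 322 CPM in siRIPK2, 338 CPM in siNC and 219 CPM in WT. SF3B1 was at 328 to 452 CPM in siRIPK2, 312 CPM in siNC and 330 CPM in WT, and RBM10 at 102 to 132 CPM in siRIPK2, 97.4 CPM in siNC and 104 CPM in WT. The unadjusted p-values of these splicing genes ran from 0.284 to 0.477 in edgeR when siRIPK2 was set against siNC. Against WT all 10 splicing genes had a positive value (median 0.14), with 0 at an unadjusted p under 0.05. Of all 14306 tested genes 7427 were positive against WT (median 0.0132). The 10 values share the same 4 knockdown libraries and 1 WT library, so they are not independent.

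For BCL2L11, the member with the lowest unadjusted p against both controls, the genes whose log2(CPM + 1) profile over the 6 libraries was most like it were CCDC6, NOSIP and XPC, with Pearson correlations of 0.982, 0.981 and 0.98. They are the highest of 10673 genes, over only 6 libraries that share their siNC value as the lowest. CCDC6 was at 61.0, 64.7, 68.0 and 71.1 CPM in siRIPK2_1 to siRIPK2_4, against 51.6 CPM in siNC and 62.4 CPM in WT. XPC, a DNA damage recognition gene, was at 42.4, 48.4, 47.2 and 59.5 CPM in siRIPK2_1 to siRIPK2_4, against 21.8 CPM in siNC and 52.2 CPM in WT.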

How the data were processed

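Poly(A) RNA of 6 U118 libraries was sequenced. The deposited values are raw counts for each Ensembl ID, which the authors had not normalised. The submitters' processing notes name GRCh38 and the tools HISAT2, bedtools, Trimmomatic and FastQC. Their versions, the annotation and the strand setting are not stated there. Symbols were matched for 20148 of 20263 IDs, and GENCODE release 29 (GRCh38) supplied positions, exon lengths and transcript sequences for 20224.

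The test was edgeR's quasi-likelihood F test (version 4.0.16, R 4.3.3) after TMM scaling and filterByExpr (10 counts at least), with Benjamini-Hochberg adjustment over all genes and a threshold of 0.05. Fits used 3 groups over 6 libraries (3 residual degrees of freedom, from siRIPK2 alone, so each lone control is assumed to vary likewise) or siRIPK2 against both controls. Standard errors are the log2 fold change over the square root of F. The 95% intervals use the t quantile at the residual degrees of freedom plus edgeR's prior ones, which borrow from all tested genes. Intervals on single libraries and the floor of 3 counts (0.0664 to 0.0935 CPM) cover counting error only. Library pairs differed by a chi-square of 77.1 to 224 per degree of freedom, so none was a duplicate. DESeq2 1.42.0, limma 3.58.1, other scalings, offsets, filters and left-out libraries were alternatives.

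The members and gene lists were chosen with earlier results of these data known. Named genes were the 10 members, RIPK2, other family genes past the filter and at most 3 genes of each further list, those of smallest unadjusted p in the siNC comparison with a mean of 5 CPM or more, and the 3 genes most correlated with the member of smallest p against both controls. Some genes that this rule or the marker lists select are not reported here. BCL2L2-PABPN1 and PABPN1 were added after their values were seen.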

Additional observations from a re-analysis of the deposited data

How the results depend on the processing

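Over the alternative settings 0 of the 10 members passed in any comparison, and of 444 member values 414 kept their direction and side of the threshold while 30, all uncalled, changed sign. edgeR called 0 genes in all 4 comparisons. DESeq2 called 75, 9, 10 and 11 genes for siRIPK2 against siNC, WT and both controls and siNC against WT. Against WT limma-voom and the fit with no filter called 1 each, and leaving out 1 library at a time gave 0 to 2 calls against both controls, with 2 without siRIPK2_1 and 2 without siRIPK2_2. In each case the cause was not tested. RIPK2 passed in DESeq2 against siNC (adjusted p of 0.00688, with 0.00688 to 1.0 over the alternatives).

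Sign changes by setting were as follows. With length and GC offsets BAX was 0.0274 against siNC, PMAIP1 -0.0955 against both controls and BAD -0.034 for siNC against WT. With upper-quartile factors BAX, BAK1 and PMAIP1 were -0.0122, -0.00782 and -0.0175 against both controls, and in limma-voom -0.00335, -0.241 and -0.107, with PMAIP1 at -0.0671 against WT. Leaving out 1 library at a time, values against siNC ran from -0.569 to 0.164 for BCL2L2, -0.643 to 0.0186 for BAK1 and -0.308 to 0.146 for PMAIP1, with a change of sign without siRIPK2_3 for BCL2L2, siRIPK2_2 for BAK1 and either for PMAIP1. Against WT they ran from -0.265 to 0.137 for MCL1, -0.0156 to 0.241 for BCL2L11 and -0.215 to 0.228 for PMAIP1, with a change of sign without siRIPK2_2 or siRIPK2_4 for MCL1, siRIPK2_4 for BCL2L11 and siRIPK2_1 or siRIPK2_4 for PMAIP1. Against both controls they ran from -0.0605 to 0.536 for BCL2L1, -0.668 to 0.0662 for BCL2L2, -0.151 to 0.177 for BAX, -0.317 to 0.444 for BAK1, -0.261 to 0.186 for PMAIP1, -0.475 to 0.373 for BID and 0.14 to 1.38 for BCL2L11. The sign changed without siNC for BCL2L1 (-0.0605) and BID (0.373), without siRIPK2_3 for BCL2L2 (0.0662), without siRIPK2_4 or WT for BAX, without siRIPK2_3, siRIPK2_4 or WT for BAK1 and without siRIPK2_1, siRIPK2_4 or WT for PMAIP1. Adding the readthrough counts to BCL2L2, chosen after seeing the data, gave -0.13 against siNC. No paired analysis was possible because each control group has 1 library.

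The members had 162 to 15821 counts per library. With 1 library per control, 3 residual degrees of freedom and a biological coefficient of variation of 33.7%, the intervals against siNC of 9 of 10 members, BAX being the exception, include a 2-fold change in at least 1 direction.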
